A study of Mus musculus with 10 samples.

Results

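The genes described here are 6 complement genes of the mouse: C1qa, C1qb and C1qc, which encode the 3 chains of C1q, and C2, Cfb and C3. They were taken by name, as 6 of the 21887 protein-coding genes measured. For each gene the window measured was its body with 5 kb on either side, and the value, called window cover, is the percent of that window lying under called H3K27me3 regions. H3K27me3 is histone H3 trimethylated at lysine 27, and the regions came from chromatin immunoprecipitation sequencing of bone marrow-derived macrophages. Marrow cells of C57BL/6 mice were differentiated for 7 days with 20 ng/ml M-CSF, a growth factor for macrophages. KO cells were Eif2ak3 fl/fl x LysMcre, in which Cre recombinase is driven by the lysozyme M gene of myeloid cells, and WT cells were Eif2ak3 fl/fl without Cre. Both genotypes therefore carried floxed alleles of Eif2ak3, whose product is the stress kinase PERK. M2 cells then received 20 ng/ml IL-4 for 24 h, M1 cells received 20 ng/ml LPS with 50 ng/ml IFNg for 24 h, and M0 cells were left untreated. There were 2 KO and 2 WT libraries in M2, 2 KO and 2 WT libraries in M1, and 1 KO and 1 WT library in M0. The series' design text calls the M1 and M2 pairs biological replicates, and M0 has none within a genotype. The deletion of Eif2ak3 cannot be read from this histone mark.

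Complement is a cascade of plasma proteins that tags and lyses microbes and clears dying cells. C1q is the recognition unit of the classical pathway, and unlike most complement proteins it is made mainly by macrophages and dendritic cells rather than by the liver. C2 is the protease of the classical C3 convertase, factor B (Cfb) is its counterpart in the alternative pathway, and both convertases cleave C3, the protein on which all complement pathways meet. H3K27me3 is laid down by Polycomb repressive complex PRC2, most often over silent genes with CpG-rich promoters.

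In mm10 coordinates, the 6 genes lie at 3 places. C1qb (chr4:136880126-136886200), C1qc (chr4:136889801-136892936) and C1qa (chr4:136895916-136898844) stand side by side on chromosome 4. Cfb (chr17:34856374-34862514) and C2 (chr17:34862602-34882100) adjoin on chromosome 17, with 87 bp between them, and C3 (chr17:57203967-57228136) lies far away on the same chromosome. Neighbouring windows share sequence: C1qa and C1qc share 7.02 kb, C1qb and C1qc share 6.40 kb, and C2 and Cfb share 9.91 kb. Values of neighbours are therefore not independent of each other, and the 6 genes amount to 3 loci.

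The 250 bases before the annotated start were matched in the RefSeq promoter table (GRCm38.p6) for 3 of the 6 genes, C1qb, C1qc and C3. They are shown with the promoter of Epha8, the gene of an ephrin receptor that lies in the Polycomb domain next to the C1q genes, because both CG content and H3K27me3 differed between them. All 4 lie on the minus strand and are written 5′ to 3′ with each CG in capitals.
C1qb promoter, chr4:136886201-136886450: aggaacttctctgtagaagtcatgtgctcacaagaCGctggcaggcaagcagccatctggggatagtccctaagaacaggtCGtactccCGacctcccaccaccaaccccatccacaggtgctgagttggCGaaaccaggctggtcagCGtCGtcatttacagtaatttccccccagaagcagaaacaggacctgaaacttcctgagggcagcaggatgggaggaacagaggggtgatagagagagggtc
C1qc promoter, chr4:136892915-136893164: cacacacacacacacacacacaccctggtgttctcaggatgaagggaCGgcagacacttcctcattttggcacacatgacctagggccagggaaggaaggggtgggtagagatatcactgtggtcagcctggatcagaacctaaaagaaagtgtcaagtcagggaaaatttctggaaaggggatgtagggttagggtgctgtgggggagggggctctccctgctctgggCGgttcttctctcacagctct
C3 promoter, chr17:57228137-57228386: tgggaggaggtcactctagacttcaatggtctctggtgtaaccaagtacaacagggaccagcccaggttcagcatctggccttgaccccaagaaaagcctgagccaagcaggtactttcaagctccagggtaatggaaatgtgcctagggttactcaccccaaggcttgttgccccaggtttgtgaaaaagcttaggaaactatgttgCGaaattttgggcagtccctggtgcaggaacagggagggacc
Epha8 promoter, chr4:136956817-136957066: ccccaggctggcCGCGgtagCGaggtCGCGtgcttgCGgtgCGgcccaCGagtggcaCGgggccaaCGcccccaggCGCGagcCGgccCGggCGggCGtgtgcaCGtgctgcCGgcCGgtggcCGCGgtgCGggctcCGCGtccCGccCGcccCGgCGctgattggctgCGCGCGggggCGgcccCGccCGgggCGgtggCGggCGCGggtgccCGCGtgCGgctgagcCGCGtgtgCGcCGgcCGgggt
These stretches held 6 CG in C1qb, 2 in C1qc and 1 in C3, against 46 in Epha8. Among 32851 promoters of the same length the median was 6 CG, with quartiles of 2 and 16. Of these promoters, 49.6% held fewer CG than C1qb, 18.8% fewer than C1qc and 7.87% fewer than C3, against 99.7% fewer than Epha8. The promoters of C1qb, C1qc and C3 lay outside called regions in all 10 libraries. The promoter of Epha8, like that of Ephb2 (20 CG), the ephrin receptor gene on the other side, lay wholly under a region in all 10.

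The libraries held 12.6 to 20.9 megatags (14.2 to 20.9 in M2, 18.4 to 19.9 in M1, 12.6 and 14.5 in M0). Each list held 32320 to 39658 regions. The share of tags inside them was 41.3% to 61.3% in M2 and M1, and higher in both M0 libraries, at 62.6% and 64.1%. The stimulated libraries, M2 and M1 together, had estimated fragment lengths of 178 to 190 bp and 214 to 251 Mb under regions, against 352 and 372 bp and 157 and 177 Mb in the M0 libraries. Fragment length, the share of tags inside regions and the M0 state therefore cannot be told apart. Depth overlapped slightly (14.2 megatags in KO M2 replicate 2 and 14.5 in KO M0). WT M2 replicate 1 stood apart from the other M2 libraries. Its mean Jaccard index with libraries of its own state, the length called in both libraries over the length called in either, was 0.477, against 0.598 to 0.664 in the other 7 stimulated libraries. Of 10 macrophage marker genes, among them Csf1r, Spi1 and Adgre1, 7 lay outside regions in all 10 libraries. In M0 alone, 1 or 2 had at least 50% of the body under regions. T and NK cell markers had 6 to 8 of 10 bodies covered to that extent, and B cell markers 2 to 5 of 8. For hepatocyte markers it was 2 to 4 of 8 matched of 9 listed, and for stromal markers 1 to 2 of 6.

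Across the 10 libraries the genes divided into 3 with a mean window cover of 30.7% or more and 3 with 7.26% or less. Cfb averaged 38.4% ± 7.73, C1qa 32.5% ± 10.3 and C2 30.7% ± 9.48 (SD, n = 10). C3 averaged 7.26% ± 10.8, C1qc 6.77% ± 8.19 and C1qb 2.41% ± 3.22 (SD, n = 10). In that order each gene's mean was within the larger SD of the pair from its neighbour's, except between C2 and C3. For comparison, 43.8% of all protein-coding genes had a window cover of 0 in every library. Mean cover was lower than that of Cfb in 84.3% of genes, and lower than that of C1qb in 58.0%. Part of the Cfb window cover lay over C2, in the flank of Cfb. In KO M1 replicate 1 and WT M1 replicate 1, Cfb window cover was 30.2% and 30.6% with the Cfb body at 0%. By body alone the order changed: C2 averaged 38.6%, C1qa 33.2% and Cfb 23.8%.

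**Figure D1:**
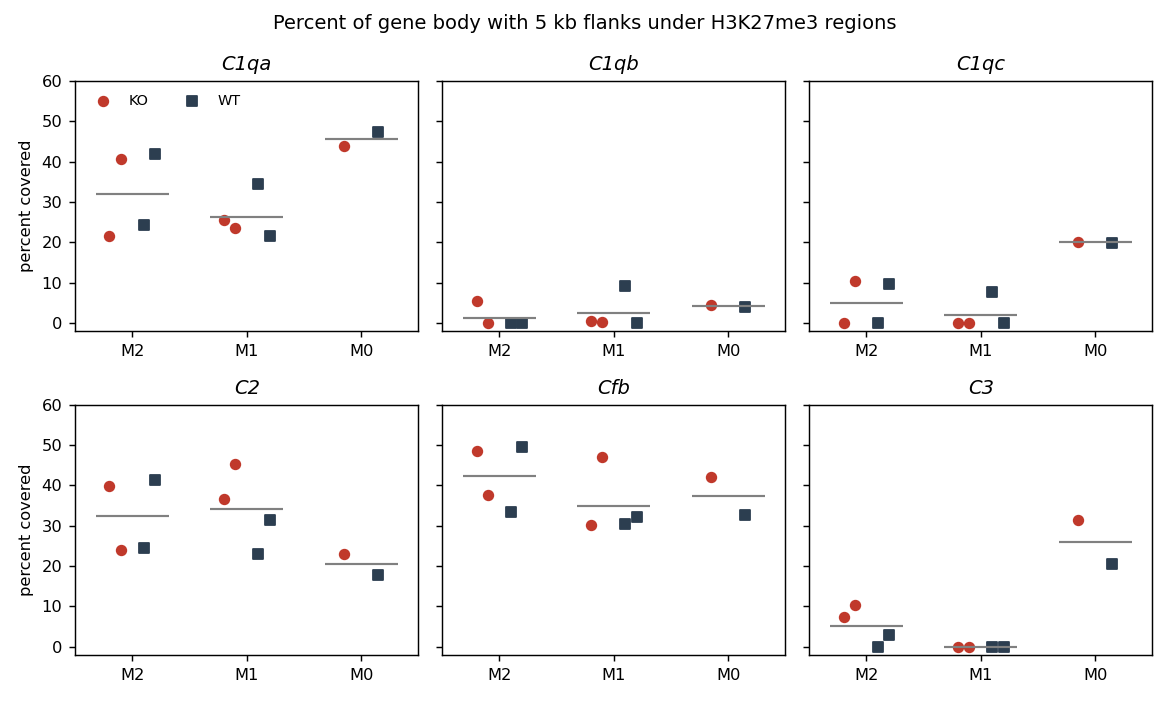
Percent of each gene body with 5 kb flanks under H3K27me3 regions (vertical axis) by state, with 1 point per library (circles KO, squares WT) and a grey line at the mean of the state. C1qa, C1qc and C3 are highest in both M0 libraries (C3 31.3% in KO M0 and 20.4% in WT M0), and C3 is at 0 in all 4 M1 libraries.

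The 3 C1q genes lay in a gap between H3K27me3 regions on either side, seen in every library. On the C1qa side, a domain of 75.5 to 79.6 kb covered all of Epha8 (body cover 100% in all 10 libraries). On the C1qb side the bounding region measured 28.003 to 104 kb in stimulated libraries, against 2.77 kb in KO M0 and 24.7 kb in WT M0, and regions ran on towards Ephb2, whose body was covered from 36.2% to 96.9%. The gap between these regions measured 25.05 and 25.7 kb in KO M2, 29.6 and 24.7 kb in WT M2, 25.3 and 25.6 kb in KO M1, 23.8 and 27.2 kb in WT M1, 25.8 kb in KO M0 and 25.3 kb in WT M0. These widths overlapped between all states and both genotypes, and the median was 25.5 kb. The gap averaged 26.3 ± 2.27 kb in M2 against 25.5 ± 1.40 kb for M1 (SD, n = 4 each, difference 0.811 kb, two-sided exact permutation p = 0.657). The gap was 25.5 ± 0.307 kb in KO and 26.1 ± 2.33 kb in WT (n = 5 each, difference -0.626 kb, exact permutation p = 0.639), and the widest gap was that of WT M2 replicate 1. Stimulated libraries averaged 25.9 ± 1.80 kb (n = 8) against 25.5 ± 0.344 kb in M0 (n = 2, difference 0.367 kb, exact permutation p = 0.867).

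The edge of the Epha8-side domain was the better fixed edge of the gap. It lay between chr4 positions 136899689 and 136901599, a spread of 1.91 kb over 10 libraries, and stopped 0.845 to 2.76 kb short of C1qa. The edge on the other side stopped 3.52 to 9.05 kb short of C1qb. The Epha8-side domain was among the strongest of each list by Normalized Tag Count, the authors' tag count of a region scaled to 10 megatags. Its count was 3737 and 4263 in KO M2, 1835 and 2892 in WT M2, 2118 and 2168 in KO M1, 2403 and 1960 in WT M1, 5266 in KO M0 and 5183 in WT M0. Between 99.3% and 99.8% of the regions in the same list had a lower count.

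Inside the gap, C1qb and C1qc were free of H3K27me3 regions: both bodies were at 0% in all 10 libraries. This held on 6.08 kb of C1qb and 3.14 kb of C1qc. Taken over all genes, 32 of 21887 (0.146%), with C1qb and C1qc among them, had a body at 0 in all 10 libraries and a region of at least 15 kb with its edge within 25 kb on both sides in every library. These limits were chosen after the values were seen. C1qa, the outermost of the 3, differed from C1qb and C1qc.

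The C1qa body was almost wholly covered in both M0 libraries and bare in most stimulated ones. Body cover was 0% and 66.8% in KO M2, 0% and 43.3% in WT M2, 0% and 0% in KO M1, 34.1% and 0% in WT M1, 95.5% in KO M0 and 92.7% in WT M0. All 8 stimulated libraries were below both M0 libraries, and 5 of the 8 were at 0. The mean was 18.0% ± 26.5 in stimulated libraries and 94.1% ± 2.00 in M0 (SD, n = 8 and 2), a difference of -76.0 percentage points. The two-sided exact permutation p was 0.0222, the smallest that 45 arrangements allow, and 0.123 after Benjamini-Hochberg adjustment over all genes with any cover. Of 9352 such genes, 0.235% had a lower difference of body cover. The C1qa body is 2.93 kb long, so a single short region can cover nearly all of it. For window cover, 4.10% of genes with any cover had a lower difference than C1qa.

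These C1qa regions were short and were called apart from the Epha8-side domain. The distance to it was 2.00 kb in KO M2 replicate 2, 2.22 kb in WT M2 replicate 2, 3.29 kb in WT M1 replicate 1, 2.89 kb in KO M0 and 2.398 kb in WT M0. These distances are close to the 2500 bp over which the authors' calling joined windows, and a longer joining distance was not tested. The region over C1qa was 1.96 kb long with a Normalized Tag Count of 28.9 in KO M2 replicate 2, 1.27 kb with 19.6 in WT M2 replicate 2, and 1.00 kb with 12.6 in WT M1 replicate 1. It was 3.43 kb with 99.0 in KO M0 and 3.31 kb with 89.2 in WT M0. Within each list, 74.4% of regions in KO M0 and 70.4% in WT M0 had a lower count than the C1qa region, against 40.7% in KO M2 replicate 2, 29.0% in WT M2 replicate 2 and 1.52% in WT M1 replicate 1. The region of WT M1 replicate 1 stood near the lowest count of its list, 10.8. The stretches of C1qa called in the 3 stimulated libraries lay wholly inside the 2.71 kb called in both M0 libraries. That is most of the 2.93 kb body, and overlap was counted in the body only. The overlap was therefore nearly fixed in advance and is not read as agreement of position.

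**Figure D2:**
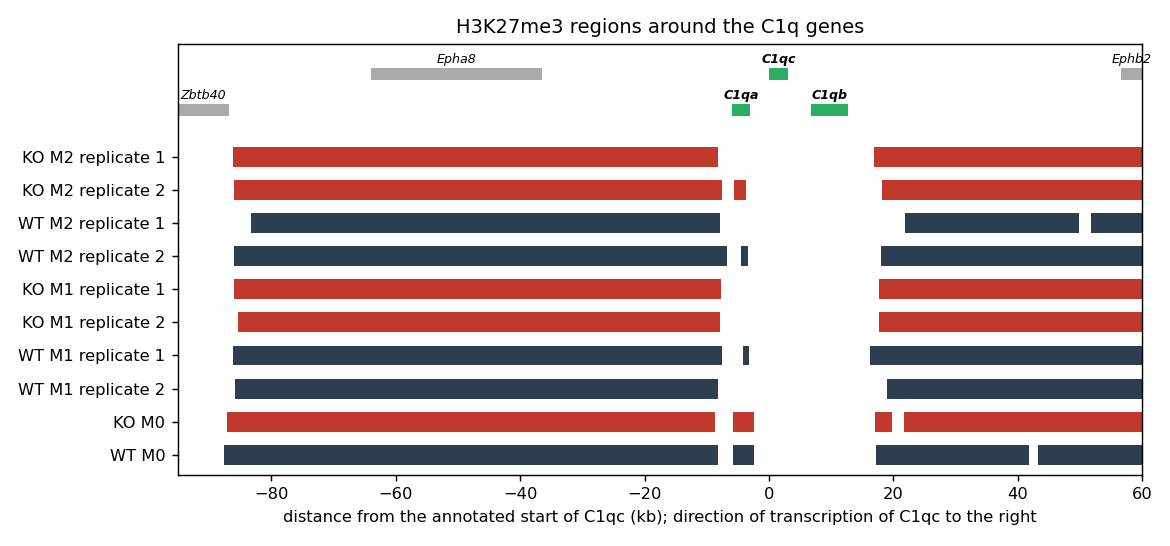
Called H3K27me3 regions (bars, red KO and dark blue WT) in each of the 10 libraries around the C1q genes, by distance in kb from the annotated start of C1qc, with complement genes in green and other genes in grey at the top. The gap of 23.8 to 29.6 kb holds C1qb and C1qc without a region in any library, and the short region over C1qa is seen in KO M2 replicate 2, WT M2 replicate 2, WT M1 replicate 1 and both M0 libraries.

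Window cover adds the flanks, and for the C1q genes the flanks reach the neighbouring domains. C1qa window cover was 21.5% and 40.8% in KO M2, 24.2% and 41.9% in WT M2, 25.5% and 23.6% in KO M1, 34.5% and 21.5% in WT M1, 43.9% in KO M0 and 47.4% in WT M0. The stimulated libraries were all below both M0 libraries, and the nearest values were 41.9% in WT M2 replicate 2 and 43.9% in KO M0. The mean was 29.2% ± 8.56 in stimulated libraries and 45.6% ± 2.45 in M0, a difference of -16.4 points (exact permutation p = 0.0222, adjusted p = 0.112 over all genes). With the upper 50% of regions of each list by score, the C1qa difference was -24.4 points and the groups overlapped (exact permutation p = 0.0444). The authors' score did not follow tag count here. In WT M0 the Epha8-side domain had a score of 20 with a count of 5183, and the C1qa region 30.5 with 89.2. The upper 50% by score are therefore not the strongest regions by count.

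C1qc window cover was 0% and 10.3% in KO M2, 0% and 9.65% in WT M2, 0% and 0% in KO M1, 7.61% and 0% in WT M1, 20.2% in KO M0 and 19.9% in WT M0. Both M0 libraries were above all stimulated ones, and all of this cover was the C1qa region reaching into the flank of C1qc. The mean was 3.45% ± 4.82 in stimulated libraries and 20.1% ± 0.221 in M0, a difference of -16.6 points (exact permutation p = 0.0222, adjusted p = 0.112). C1qb window cover was 5.51% and 0% in KO M2, 0% and 0% in WT M2, 0.647% and 0.330% in KO M1, 9.24% and 0% in WT M1, 4.44% in KO M0 and 3.90% in WT M0. The groups overlapped, with the highest value in WT M1 replicate 1, and the difference of stimulated minus M0 was -2.20 points (exact permutation p = 0.600). This cover was the end of the Ephb2-side region.

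At C2 and Cfb, a main region at the C2 end that adjoins Cfb was called in all 10 libraries. It reached into Cfb in 8 of them and did not in KO M1 replicate 1 and WT M1 replicate 1. The region ran 10.2 and 6.09 kb in KO M2, 7.25 and 10.9 kb in WT M2, 10.8 and 13.4 kb in KO M1, 6.80 and 8.30 kb in WT M1, 6.80 kb in KO M0 and 5.28 kb in WT M0. The part called in every library was 3.59 kb long (chr17:34862640-34866231) and lay in C2 at the end that adjoins Cfb, while 7.79 kb of the C2 body was called in no library. The Normalized Tag Count of the region was 179 and 147 in KO M2, 84.3 and 180.2 in WT M2, 168 and 186 in KO M1, 86.4 and 116 in WT M1, 157 in KO M0 and 102 in WT M0. Its lowest counts were thus those of the 2 WT libraries numbered 1.

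The region reached further into C2 in stimulated libraries than in M0. From the C2 end that adjoins Cfb it extended 7.28 and 4.47 kb in KO M2, 6.76 and 7.87 kb in WT M2, 10.8 and 10.7 kb in KO M1, 6.78 and 8.02 kb in WT M1, 4.21 kb in KO M0 and 3.63 kb in WT M0. The 8 stimulated values were all above both M0 values. The mean was 7.83 ± 2.10 kb in stimulated libraries and 3.92 ± 0.412 kb in M0 (SD, n = 8 and 2, difference 3.91 kb, exact permutation p = 0.0444). In M2 it averaged 6.59 ± 1.49 kb and in M1 9.08 ± 2.00 kb (n = 4 each, difference -2.48 kb, exact permutation p = 0.114). Into Cfb it reached 1.94 ± 1.21 kb in M2 and 0.699 ± 1.27 kb in M1 (difference 1.24 kb, exact permutation p = 0.171).

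C2 body cover is largely the same measurement as this reach and not a second observation. Short further regions added to it in both KO M2 libraries, WT M2 replicate 2 and WT M1 replicate 2. That of KO M2 replicate 2 was 1.00 kb long with a Normalized Tag Count of 14.8, and 5.00% of its list had a lower count. C2 body cover was 45.2% and 28.1% in KO M2, 34.7% and 46.8% in WT M2, 55.3% and 54.8% in KO M1, 34.8% and 46.2% in WT M1, 21.6% in KO M0 and 18.6% in WT M0. No stimulated library was as low as either M0 library. The mean was 43.2% ± 9.86 in stimulated libraries and 20.1% ± 2.11 in M0, a difference of 23.1 points (exact permutation p = 0.0222, adjusted p = 0.123). C2 window cover was 39.8% and 24.0% in KO M2, 24.6% and 41.4% in WT M2, 36.5% and 45.4% in KO M1, 23.1% and 31.5% in WT M1, 23.0% in KO M0 and 17.9% in WT M0. The nearest values were 23.06% in WT M1 replicate 1 and 23.03% in KO M0, and the means of 33.3% ± 8.72 in stimulated libraries and 20.5% ± 3.63 in M0 differed by 12.8 points (exact permutation p = 0.0667, adjusted p = 0.220). With the upper 50% of regions of each list by score, the difference in C2 window cover was -6.14 points (exact permutation p = 0.667). With regions at or above the highest calling threshold of any library it was 11.96 points, and the groups overlapped.

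Cfb window cover overlapped between all states. It was 48.5% and 37.7% in KO M2, 33.5% and 49.5% in WT M2, 30.2% and 47.1% in KO M1, 30.6% and 32.2% in WT M1, 42.1% in KO M0 and 32.7% in WT M0. The lowest and the highest value, 30.2% and 49.5%, were both in stimulated libraries. The difference of stimulated minus M0 was 1.25 points on means of 38.7% ± 8.38 in stimulated libraries and 37.4% ± 6.63 in M0 (exact permutation p = 0.911). For the Cfb body alone it was -11.6 points, on means of 21.5% ± 21.6 in stimulated libraries and 33.1% ± 10.7 in M0 (exact permutation p = 0.556).

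The genes around C2 and Cfb were largely bare. Of 9 protein-coding neighbours within 50 kb, 8 had a body at 0% in all 10 libraries: Dxo, Ehmt2, Nelfe, Neu1, Skiv2l, Slc44a4, Stk19 and Zbtb12. The other one, Cyp21a1, which encodes steroid 21-hydroxylase, was covered from 48.1% to 100%. Around C3, Gpr108, Trip10 and Vav1 were at 0% in all libraries, Cd70 was at 100% in all, and Tnfsf14 was at 21.2% in WT M0 and at 0% in the other 9.

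**Figure D3:**
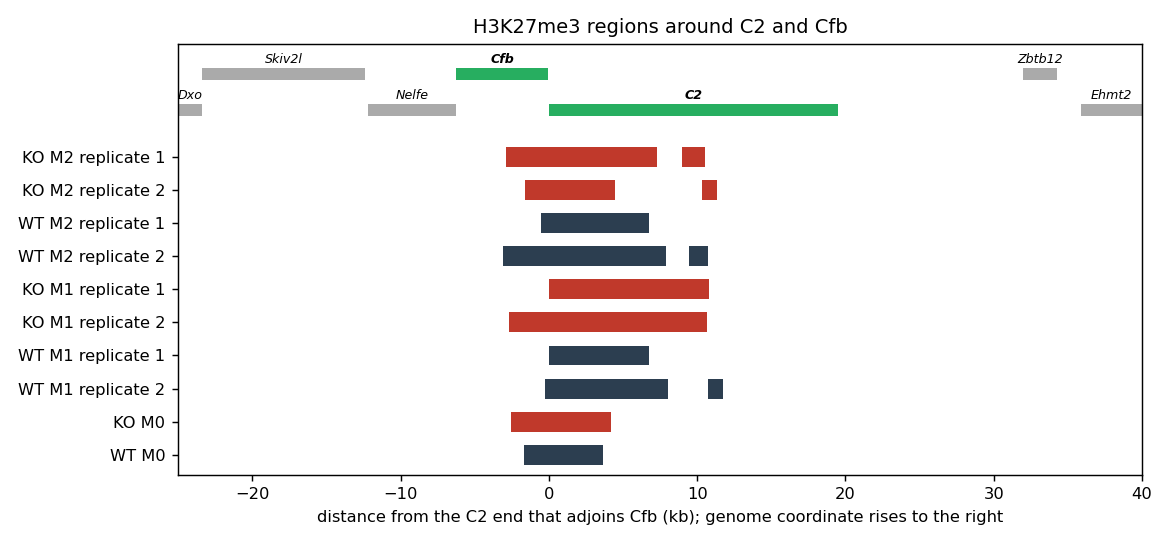
Called H3K27me3 regions (bars, red KO and dark blue WT) in each library around C2 and Cfb, by distance in kb from the C2 end that adjoins Cfb, with complement genes in green and other genes in grey. The main region lies at this end of C2 in all 10 libraries, extends into Cfb in 8, and reaches 4.47 to 10.8 kb into C2 in stimulated libraries, against 3.63 and 4.21 kb in M0.

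C3 carried regions in both M0 libraries, in 3 of 4 M2 libraries, and no region was called there in M1. C3 window cover was 7.44% and 10.5% in KO M2, 0% and 2.93% in WT M2, 0% in both KO M1 and both WT M1 libraries, 31.3% in KO M0 and 20.4% in WT M0. Both M0 libraries were above all 8 stimulated ones. The mean was 2.60% ± 4.13 in stimulated libraries and 25.9% ± 7.72 in M0, a difference of -23.3 points (exact permutation p = 0.0222, adjusted p = 0.112). C3 body cover was 10.5% and 14.8% in KO M2, 0% and 4.14% in WT M2, 0% in all M1 libraries, 44.3% in KO M0 and 28.9% in WT M0. Its means were 3.68% ± 5.84 in stimulated libraries and 36.6% ± 10.9 in M0, and the difference was -32.9 points (exact permutation p = 0.0222, adjusted p = 0.123). Of genes with any cover, 3.58% had a lower difference in body cover than C3. With the upper 50% of regions by score, the difference in C3 window cover was -4.54 points and the groups overlapped (exact permutation p = 0.0444).

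The longest C3 regions lay in the first part of the gene, beyond the start itself. Counted from the annotated start in the direction of transcription, they ran from 2.89 to 9.42 kb in KO M0 (Normalized Tag Count 109) and from 0.898 to 5.56 kb in WT M0 (88.0). A second region lay at 12.1 to 14.9 kb in KO M0 (48.0) and 12.1 to 13.4 kb in WT M0 (25), and another near the far end of the gene, at 21.8 to 23.2 kb in KO M0 (23.5) and 23.0 to 24.0 kb in WT M0 (18.2). The regions of the M2 libraries overlapped those of at least 1 M0 library. KO M2 replicate 1 had 1 region at 12.3 to 14.8 kb (42.3). KO M2 replicate 2 had 3, at 2.97 to 3.97 kb (14.4), 12.4 to 13.7 kb (19.0) and 21.2 to 22.5 kb (18.0). WT M2 replicate 2 had 1 at 5.21 to 6.21 kb (13.1), and only 1.74% of the regions in its list had a lower count. The called part of C3 lay under a region of at least 1 of the M0 libraries for 100% of its length in KO M2 replicate 1, 84.2% in KO M2 replicate 2 and 100% in WT M2 replicate 2. Under regions of both M0 libraries it was 44.6%, 55.7% and 35.6% in the same order. KO M0 called 10.7 kb of the 24.2 kb body and WT M0 6.98 kb, with 4.17 kb called in both. Some overlap would therefore arise for calls placed anywhere in the gene. On 10.1 kb of C3 no library had a region.

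**Figure D4:**
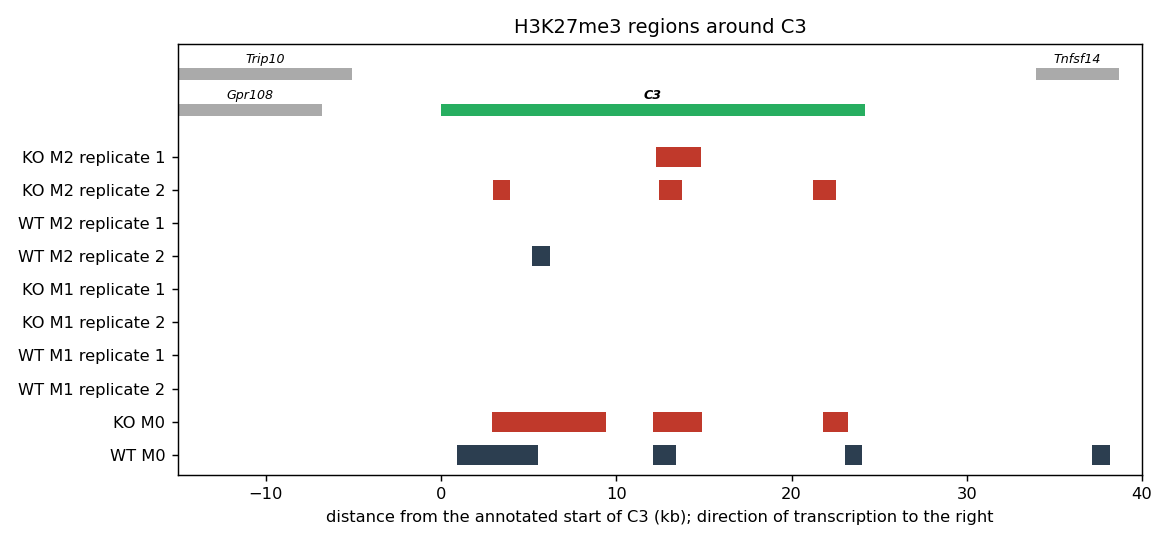
Called H3K27me3 regions (bars, red KO and dark blue WT) in each library around C3, by distance in kb from its annotated start in the direction of transcription, with C3 in green and other genes in grey. Stretches in 3 parts of C3 are called in both M0 libraries, the same stretches are called in part in KO M2, and no M1 library has a region in C3.

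Set against all genes, separation from M0 was frequent. Window cover of the stimulated and M0 libraries did not overlap for 4 of the 6 complement genes, where C1qa, C1qc and C3 were lower in stimulated libraries and C2 was higher. Among 12294 genes with any cover, 26.1% were apart in this way, 16.9% with stimulated libraries above M0 and 9.2% with them below. C1qa and C1qc share the region over C1qa, so the 3 lower genes stand for 2 loci. For the body alone, 3 of the 4 complement genes with any cover were apart (C1qa and C3 lower, C2 higher), against 24.1% of 9352 genes (13.8% with stimulated libraries above M0 and 10.3% below). The median difference in window cover was -9.32 points over the 6 genes and 0.527 points over all genes with any cover. No gene of the genome passed an adjusted p of 0.05 in this comparison, where the smallest adjusted p was 0.112 and 25.8% of genes had an unadjusted exact permutation p under 0.05. The smallest possible exact permutation p is 0.0222, so passing would need a far larger share of genes at that value. Against M0, 4 of the 6 genes were apart with the M2 libraries alone and with the M1 libraries alone, where the smallest possible exact permutation p is 0.0667. Genes apart with all stimulated libraries stay apart in any part of them, so these counts add no support. The share of all genes apart was not computed for these parts. Of the macrophage markers, mean body cover was 0% to 0.182% in M2 and 0% in M1 libraries, against 6.39% to 11.1% in M0, so marker cover was also higher in M0, and its part in the result was not tested.

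**Figure D5:**
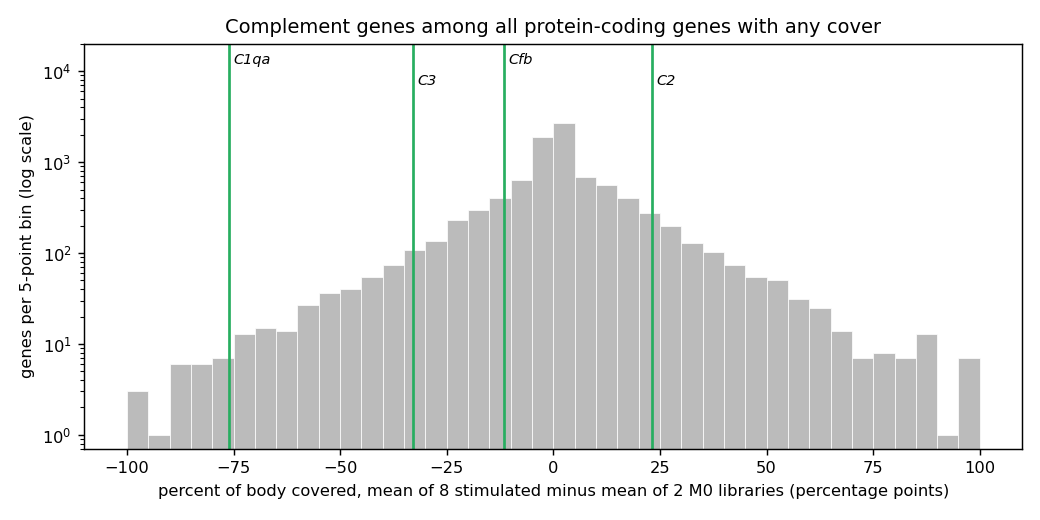
Number of protein-coding genes (log scale) by difference in percent of the body covered, mean of 8 stimulated minus mean of 2 M0 libraries, in bins of 5 percentage points. Green lines mark C1qa at -76.0, C3 at -32.9, Cfb at -11.6 and C2 at 23.1 points, while C1qb and C1qc had no cover of the body and are not drawn.

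Between M2 and M1, window cover overlapped for all 6 genes, against 3.08% of 11759 genes that were apart. C1qa averaged 32.1% ± 10.7 in M2 and 26.3% ± 5.72 in M1 (± SD with 4 libraries each, difference 5.86 points, exact permutation p = 0.314). C2 averaged 32.4% ± 9.42 in M2 and 34.1% ± 9.33 in M1 (difference -1.67 points, exact permutation p = 0.800). Cfb averaged 42.3% ± 7.92 in M2 and 35.01% ± 8.09 in M1 (difference 7.30 points, exact permutation p = 0.171). C1qc averaged 5.00% ± 5.78 in M2 and 1.90% ± 3.81 in M1, and C1qb 1.38% ± 2.75 in M2 and 2.55% ± 4.46 in M1, with an exact permutation p of 0.429 for C1qc and 0.543 for C1qb. C3 averaged 5.21% ± 4.66 in M2 and 0% in all 4 M1 libraries, with an exact permutation p of 0.143 and an adjusted p of 0.880. Single libraries decided separation for C3 and Cfb. Without WT M2 replicate 1, the library that stands apart, the C3 values were all higher in M2, with a difference of 6.95 points and an exact permutation p of 0.0286. Without KO M1 replicate 2 the Cfb values were all higher in M2, with a difference of 11.3 points (exact permutation p = 0.0571). Over all libraries left out in turn, the Cfb difference ranged from 4.90 to 11.3 points. No gene of the genome passed an adjusted p of 0.05, and 3.08% had an unadjusted exact permutation p under 0.05. The adjustment could pass a gene only if most genes with any cover reached the smallest possible exact permutation p, 0.0286.

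Between the genotypes, none of the 6 genes was apart in the same direction within each of M2, M1 and M0, against 4.23% of 12294 genes. C3 averaged 9.85% ± 12.9 in KO and 4.67% ± 8.90 in WT (SD, n = 5 each, difference 5.18 points), and the exact permutation p within states was 0.167, with an adjusted p of 0.754. C2 averaged 33.7% ± 9.85 in KO and 27.7% ± 9.07 in WT (difference 6.05 points, exact permutation p = 0.278). Cfb averaged 41.1% ± 7.44 in KO and 35.7% ± 7.80 in WT (difference 5.42 points, exact permutation p = 0.33). C1qa averaged 31.1% ± 10.5 in KO and 33.9% ± 11.1 in WT (difference -2.86 points, exact permutation p = 0.556). The differences of C1qc and C1qb were -1.32 and -0.444 points, with an exact permutation p of 1 for each. No gene of the genome passed an adjusted p of 0.05 here, where the smallest was 0.657 and 4.23% had an unadjusted exact permutation p under 0.05. Here too, passing would need most genes with any cover at the smallest possible exact permutation p, 0.0278.

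Within a single state, 1 of the 6 genes was apart by genotype in M2 and another in M1, and 2 libraries against 2 cannot give an exact permutation p under 0.33. In M2 it was C3, at 8.96% ± 2.15 in KO and 1.46% ± 2.07 in WT (n = 2 each), against 37.6% of 11236 genes apart in M2 (26.8% with KO above WT). In M1 it was C2, at 40.9% ± 6.24 in KO and 27.3% ± 5.99 in WT (n = 2 each), against 23.4% of 11020 genes apart in M1 (15.2% with KO above WT). C2 body cover in M1 was 55.3% and 54.8% in KO and 34.8% and 46.2% in WT.

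The authors' deposited tables of regions listed as higher in KO or in WT held no region in the window of any of the 6 genes. The share of all gene windows without an entry was not computed, so this absence is not read as a trait of these genes. These 4 deposited tables of the authors, whose p-values reach 0.00999 and are not adjusted, list 1049 regions higher in KO and 185 higher in WT in M2, and 93 higher in KO and 49 higher in WT in M1. The nearest entry in the authors' deposited table for M2 lay 55.3 kb from Cfb, at chr17:34800662-34801062, with a log2 fold of 1.40 for KO over WT and a false discovery rate of 0.192. For C3 the nearest entry of the authors' deposited table for M2 was 447 kb away (log2 fold 1.39), and for C1qb it was 604 kb away (log2 fold 1.28). The entries of the authors' deposited tables nearest to the 6 genes had false discovery rates of 0.154 to 0.194 in M2 and of 0.9999 in M1.

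Other genes of the complement system gave the setting. Of 47 listed genes of the pathway outside these 6, 46 were matched, 29 had any cover and 17 had none. Window cover was at least 50% in all 10 libraries for 4: Clu, which encodes the fluid-phase inhibitor clusterin, averaged 96.1%, Susd4, a membrane regulator, 80.0%, Vtn, which encodes vitronectin, 70.7%, and C4b, which encodes C4, the partner of C2 in the classical convertase, 66.3%. Between M2 and M1, 1 of the 29 (3.45%) was apart, a share close to the 3.08% of 11759 genes. That gene was Masp1, which encodes a protease of the lectin pathway. Masp1 averaged 47.1% ± 8.41 in M2 and 63.3% ± 5.33 in M1 (± SD with 4 libraries each, difference -16.3 points, exact permutation p = 0.0286, adjusted p = 0.880). Between KO and WT none of the 29 was apart, against 4.23% of 12294 genes. Between stimulated and M0 libraries 6 of the 29 (20.7%) were apart, a share below the 26.1% of all genes. Of these, C1rb, Masp1, Cfi, Cd55 and Serping1 had more cover in stimulated libraries. Their differences of stimulated minus M0 were 15.4, 28.5, 42.6, 1.71 and 29.5 points in that order. Cfd, which encodes factor D, the protease that cleaves factor B, had less. For Cfd the difference of stimulated minus M0 was -46.9 points, and its M0 values were 53.1% in KO and 61.4% in WT.

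Genes on other chromosomes with the most similar window cover across the 10 libraries were found by Pearson correlation, among those whose cover ranged over at least 10 points. All points of such a correlation share the 2 M0 libraries and their depth, so it is a description only. C3 was most like Dock6 (r = 0.995), Hpn (0.988) and Hvcn1 (0.986), which had more cover in M0 as well. Dock6 averaged 2.54% in M2, 0% in M1 and 11.4% in M0. C1qa was most like Med16 (0.932), Kcna3 (0.927) and Rhbdd3 (0.925), and C1qc most like Fam131a (0.953), Med16 (0.940) and Aoc2 (0.939). C2 was most like Rtp1 and Gpr35 (0.938 each) and Bfsp1 (0.935), and Cfb most like Mro (0.922), Slc51b (0.910) and Rxfp4 (0.900). C1qb ranged over less than 10 points and was not compared.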

How the data were processed

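H3K27me3 chromatin immunoprecipitation sequencing libraries, 10 in all, were analysed from the deposited region lists. The submitters' processing notes name HOMER 4.8, Bowtie2 2.4.2, DiffBind 2.0.2, deepTools 3.5.1, SAMtools 1.10 and build mm10. The authors called regions in each library separately with HOMER, in 1000 bp windows joined over up to 2500 bp, with the false discovery rate set to 0.001 (per the file headers). The deposited signal of a region is its tag count per 10 megatags, and the lists also hold the authors' score and a clonal fold ratio, per the file headers. These describe or rank regions within a list only. The authors' deposited differential tables give log2 concentrations, a log2 fold and a p-value, but not the libraries and model used, which are not stated here.

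Overlapping regions were merged within a library, and the percent of each gene body with 5 kb flanks under them was computed for 21887 RefSeq protein-coding genes (GRCm38.p6, the assembly of mm10) with scipy 1.17.1, pandas 2.3.3, numpy 2.4.6 and Python 3.11.15. Groups were called apart when all values of one lay above all values of the other. For KO against WT over the 10 libraries, this had to hold in the same direction within each of M2, M1 and M0. Tests were two-sided exact permutations over libraries (70 arrangements for M2 against M1, 72 for KO against WT within states, 45 for stimulated against M0), adjusted by Benjamini-Hochberg over all genes with any cover. M2 and M1 were pooled as stimulated. The steps were tested on simulated data. Cover depends on each library's own calling threshold, 12.9 to 15.9 tags per 10 megatags, and counts per fixed window were not analysed here, so no counting interval is given. Exons, introns and untranslated regions were not analysed here. The annotated start is known for C1qb, C1qc and C3 only.

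The 6 genes, the lists and the tests were chosen with earlier results of these data known. Named with values were the 6 genes, protein-coding neighbours within 50 kb, listed pathway genes apart between M2 and M1 or covered to at least 50% in all libraries, and the 3 genes most like each of the 6. Values of 1 marker gene are not reported here. The genes of the pathway apart from M0, the markers named and the gap between domains were chosen after their values were seen. Replicate numbers were not used as pairs, since same-numbered libraries did not deviate together in every pairing (correlation 0.200 for WT M2 and M1, and -0.162 to 0.00139 in the other 3 pairings, over 20665 genes). Alternatives were other flanks, regions by score, joined regions, left-out libraries, single states and a replicate block.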

Additional observations from a re-analysis of the deposited data

Results flagged for a closer look

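In 4 of the 12 groups of 4 libraries looked at (6 genes in M2 and in M1), the highest library stood further from the others than Dixon's 95% critical value allows. Chance gives this in about 1 in 20 groups, and 3 of the 4 are groups in which the other values are at or near 0. C1qb window cover in M2 was 5.51% in KO M2 replicate 1 and 0% in the other 3. In M1, C1qb was at 9.24% and C1qc at 7.61% in WT M1 replicate 1, with the other 3 libraries at 0% to 0.647% for C1qb and at 0% for C1qc. Cfb window cover in M1 was 47.1% in KO M1 replicate 2, against 30.2% to 32.2% in the other 3.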

How the results depend on the processing

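Cover is a threshold measure on lists called per library, 2 M0 libraries set the contrast with M0, and leaving out either gives no exact permutation p under 0.111. With the upper 50% of regions by score, the genes apart between stimulated and M0 libraries numbered 1 (C1qc) and in M1 by genotype 0, and differences turned: Cfb M2 minus M1 -3.22, KO minus WT C1qb 0.336, C2 -5.21 and Cfb -8.43, stimulated minus M0 C2 -6.14 and Cfb -23.4 points. At the C1q genes in WT M0 the score did not follow tag count, so this setting does not keep the strongest regions by count. The cause of the turns was not tested. With start windows of 2.5 kb on each side, which 3 genes have, 1 gene was apart from M0, 0 in M2 and 0 in M1 by genotype, and KO minus WT was 0.164 for C1qc and -6.41 for C3. With 10 kb flanks 2 genes were apart by genotype in M1, Cfb M2 minus M1 was -1.64 and C1qb KO minus WT 2.20. On gene bodies Cfb stimulated minus M0 was -11.6, and with M1 alone -2.40. After the values were seen, both WT libraries numbered 1 were left out: 1 gene was then apart between M2 and M1, 4 by genotype in M2 and 3 in M1, with 1 WT library each, and C1qb was 1.51 for M2 minus M1 and 1.35 for KO minus WT. With regions at or above the highest threshold of any library, also chosen after the values were seen, C1qc KO minus WT was 0.201. Leaving out 1 library at a time, genes apart ranged from 0 to 1 for M2 minus M1 and from 2 to 4 by genotype in M2 and in M1. KO minus WT then ranged from -6.16 to 0.248 for C1qa, -1.72 to 1.51 for C1qb and -3.23 to 0.223 for C1qc, M2 minus M1 from -2.55 to 1.05 for C1qb and -5.36 to 2.07 for C2, and stimulated minus M0 from -3.44 to 5.94 for Cfb. The number of genes apart from M0 was 4 in each of these. It could not fall, since leaving out a library cannot undo a separation. A replicate block moved no call: its smallest possible exact p is 0.125 for M2 minus M1 and 0.0625 for KO minus WT, and C3 had 0.250 for M2 minus M1 at 5.21 points. The share of all genes apart was not computed for these settings, so the counts of genes apart are not read as traits of the 6 genes. By genotype within M2 or M1, a left-out library leaves a single library on one side, and such groups are often apart whatever the gene. Over all settings, 269 single-gene values, some of them at 0, neither turned nor crossed the threshold, 14 no longer passed it, 3 newly did, and 29 turned. Of these 14, all but C1qc on gene bodies and C3 with start windows came from M1 or M2 alone, or from leaving out an M0 library. There the smallest possible exact permutation p is 0.0667 or 0.111, so no gene could pass.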
